A study of Mus musculus with 120 samples.

Results

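Plantar skin of mice that received no drug was sampled on 4 days, and the libraries of those vehicle mice are described here. The members were taken by label alone: every skin library of a vehicle mouse, which gave 16 of the 64 libraries of the series, 4 each on day 4, day 7, day 11 and day 23, with 1 library per mouse. The other libraries are plantar skin of paclitaxel mice and dorsal root ganglia (DRG, clusters of sensory nerve cell bodies beside the spine) of both treatments. All 16 mice were adult male C57BL6/J animals, 6 weeks old at the first injection, given vehicle into the abdomen (Cremophor and ethanol diluted in saline) under a schedule of injections on days 0, 2, 4 and 6. The mice were perfused with buffered saline and the plantar skin of the left hind paw was taken.

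The collection day stands for several things at once in this design. Mice of a later day were older and further from their last injection, and day 4 was itself an injection day, before the last injection. The 4 mice of a day have consecutive numbers, mice were housed 4 to a cage, and neither the cage nor the hour of collection within the 12 h light cycle is given. Age, time since injection, number of injections, cage, collection session and hour of day therefore cannot be told apart from the day. No mouse was sampled on more than 1 day, so each comparison is between different mice.

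Plantar skin of the mouse hind paw is thick and largely hairless. Basal keratinocytes divide, and their daughters move outward while they switch to the suprabasal keratins and then to cornified envelope proteins. Below them lies a dermis of collagen made by fibroblasts, with vessels, resident macrophages, mast cells and nerve endings, and eccrine sweat glands open in the footpads. Skin also keeps a circadian clock, in which Arntl (BMAL1) with Clock or Npas2 switches on the Per and Cry genes, whose proteins then hold Arntl and its partner back. Dbp, Tef and the other PAR-domain factors carry the rhythm on to further genes through the D-box, a short site that the repressor Nfil3 also binds.

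The libraries held 24316389 to 45630860 counts with a median of 28807765, and 20398 to 23685 genes had a count. The keratins of the epidermis were abundant: Krt10, a suprabasal keratin, averaged between 40650 and 49660 CPM over the days, and Krt9, the keratin of palms and soles, between 2122 and 4148 CPM (CPM, each gene's count scaled to the size of its library after TMM normalisation). Of the other cell types, 7 of 10 sensory neuron markers and 7 of 9 neutrophil markers were too low to be tested. Skeletal muscle RNA was uneven: the summed level of 16 muscle genes ran from 50.98 to 58540 CPM, with SKIN52 of day 23 at 58540 CPM and SKIN08 of day 4 at 26540 CPM far above the other libraries of their days. The first principal component carried 31.8% of the variance and put SKIN52 and SKIN08 at its low end. The second carried 14% and set SKIN36 of day 11 apart. That library had the lowest summed collagen and macrophage levels of all 16. Whether fewer cells of a type or less RNA per cell lay behind such a level cannot be told from bulk tissue, and the main counts below are also given without these 3 libraries.

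**Figure D1:**
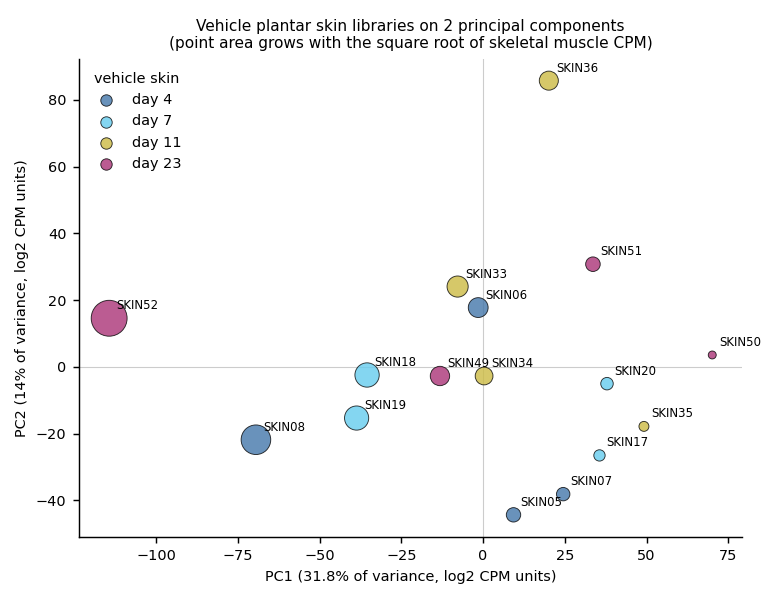
Principal components of log2 CPM of the 16 vehicle skin libraries, with the first component (31.8% of the variance) across and the second (14%) up; colour gives the day and the area of a point grows with the summed skeletal muscle level. The 4 days did not form separate groups, and SKIN52, SKIN08 and SKIN36 lie at the edges.

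The first question was whether any gene differed among the days when all 4 entered 1 test. None did at an adjusted p under 0.05 in edgeR's quasi-likelihood F test: 0 of 17163 genes tested (0%), with a smallest adjusted p of 0.0523 for Fubp1. At an unadjusted p under 0.05 there were 2440 genes (14.2%). Other tools gave other counts from the same 16 libraries, namely 647 genes with DESeq2 and 1 gene with limma voom and quality weights, and edgeR without SKIN52, SKIN08 and SKIN36 again gave 0. The counts below are therefore read as descriptions of these mice, gene by gene, beside what all genes showed.

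Taken pair by pair, the edgeR calls at this threshold lay between day 23 and the earlier days. Day 23 differed from day 4 in 3 genes (0.0175% of those tested), all lower on day 23. Day 23 differed from day 7 in 12 genes (0.0699%), of which 11 were lower and 1 was higher. Day 23 differed from day 11 in 5 genes (0.0291%), of which 4 were lower and 1 was higher. Fubp1 and Lgr6 were in both of the last lists, so the 20 calls were of 18 genes. At an unadjusted p under 0.05 those 3 pairs had 2477, 2544 and 1737 genes, and day 11 against day 4, without a call, had 2407. Among the first 3 days edgeR called no gene: 0 (0%) for day 7 against day 4, with 863 genes at an unadjusted p under 0.05 and 1 gene in DESeq2; 0 (0%) for day 11 against day 4, with 2407 and 241; and 0 (0%) for day 11 against day 7, with 904 and 5. limma voom called 0 genes in each of those 3 pairs. The median log2 fold change over all genes lay between -0.02 and 0.03 in every pair.

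These calls were close to the threshold. Their adjusted p lay between 0.0394 and 0.0466, and none was under 0.05 when p was adjusted over the 6 pairs together. With SKIN52, SKIN08 and SKIN36 left out, 1 gene was called on day 23 against day 4, 0 against day 7 and 0 against day 11; with the muscle level as a covariate the counts were 44, 29 and 2. As each library was left out in turn they ran from 0 to 42 (the highest without SKIN06 of day 4), from 0 to 17 (the highest without SKIN08) and from 0 to 1, and most such settings gave 0. The direction of each called gene was the same under each of these settings.

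Pdia4, Hsp90b1 and Pdia6, which encode chaperones of the endoplasmic reticulum, were among the 12 genes called on day 23 against day 7. They were put side by side after their values were seen, and of the 3 the list of endoplasmic reticulum stress genes holds Pdia4. The endoplasmic reticulum folds proteins bound for the cell surface and the matrix: Hspa5 (BiP) and Hsp90b1 (GRP94) hold unfolded chains, and Pdia4 and Pdia6 join the cysteines of a chain into disulfide bonds. When unfolded protein builds up, the factors ATF6 and XBP1 raise many of these genes through a promoter site called the endoplasmic reticulum stress element. Its letters, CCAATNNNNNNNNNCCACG on either strand, were looked for between 250 bases before and 50 bases after the start of each gene in RefSeq promoters of GRCm38.p6, and 39 of 32851 promoters held them (0.119%). Of 12 chaperone and stress genes, 10 had a promoter in the table and 4 held a match: Hsp90b1 in a sense and an antisense copy, Pdia6, Hspa5 and Creld2, whose product also resides in the endoplasmic reticulum. The matches are shown with 10 bases to either side because they stand in 2 of the 3 called chaperone genes, with the matching letters in capitals.
Hsp90b1 (chr10:86705523-86705666, minus strand): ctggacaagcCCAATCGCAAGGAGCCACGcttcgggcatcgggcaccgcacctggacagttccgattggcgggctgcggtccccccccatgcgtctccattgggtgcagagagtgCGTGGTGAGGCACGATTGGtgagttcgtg
Pdia6 (chr12:17266481-17266519, plus strand): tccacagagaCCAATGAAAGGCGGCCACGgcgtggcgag
Hspa5 (chr2:34772015-34772053, plus strand): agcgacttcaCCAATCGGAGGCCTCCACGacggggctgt
Creld2 (chr15:88819510-88819548, plus strand): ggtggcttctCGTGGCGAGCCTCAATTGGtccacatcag
The promoter of Pdia4, the called gene with the smallest p of day 23 against day 7, held no match, and the 100 bases before its start are given for comparison, with no capitals.
Pdia4 (chr6:47813513-47813612, minus strand): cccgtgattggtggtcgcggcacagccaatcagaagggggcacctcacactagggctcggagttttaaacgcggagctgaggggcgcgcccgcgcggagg
A match is a run of letters and no more. Whether a factor bound there in these mice was not measured.

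Pdia4 (chromosome 6, 47796141 to 47813430 in GRCm38) had 75.5, 52.7, 54.8 and 63.4 CPM on day 4 and 69.1, 63.6, 63.7 and 71.4 CPM on day 7. It had 63.8, 55.1, 56.6 and 55.6 CPM on day 11 and 37.7, 44.2, 40.5 and 37.8 CPM on day 23. Every day 23 library lay below every library of the other days. Pdia4 fell by 0.74 on the log2 scale on day 23 against day 7 (SE 0.10, edgeR adjusted p = 0.0466).

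Hsp90b1 (chromosome 10, 86690209 to 86705509) showed the same separation. Its levels were 204, 151, 170 and 205 CPM on day 4, then 184, 174, 192 and 203 CPM on day 7, then 163, 153, 160 and 155 CPM on day 11, and 127, 128, 131 and 123 CPM on day 23. Hsp90b1 fell by 0.56 on day 23 against day 7 (log2, SE 0.09, edgeR adjusted p = 0.0466). In Pdia6 (chromosome 12, 17266545 to 17284770) the means were 93.3 ± 11.7, 104 ± 4.22, 88.1 ± 6.71 and 70.3 ± 7.74 CPM on days 4, 7, 11 and 23 (SD, n = 4 each), and day 23 was lower than day 7 by a log2 difference of -0.57 (SE 0.10, edgeR adjusted p = 0.0466). The day 7 libraries of Pdia6 (98.8 to 108 CPM) all lay above those of day 23 (61.8 to 79.6 CPM), while the lowest day 11 library (79.4 CPM) overlapped with day 23.

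The wider list of 10 endoplasmic reticulum stress genes, which holds Pdia4 but neither Hsp90b1 nor Pdia6, moved in the same direction without further calls. On day 23 against day 7, 6 of 10 were lower at an unadjusted p under 0.05 (7.24% of all genes were). In 6 of 10 every day 23 library was below every day 7 library (4.92% of all genes). Pdia4, whose call led to this list, is counted in both. Over the 4 days 3 of 10 had an unadjusted p under 0.05, against 14.2% of all genes. The list's median log2 fold change was -0.32, against 0 for all genes. Hspa5, its most abundant member, had 238, 246, 249 and 226 CPM on day 23 and 298, 303, 322 and 372 CPM on day 7 (log2 difference -0.43, SE 0.09, edgeR adjusted p = 0.0806). Paclitaxel mice had their own day 23 against day 7 differences for the 3 called genes: -0.37 for Pdia4, -0.35 for Hsp90b1 and -0.34 for Pdia6 (edgeR adjusted p = 0.0183, 0.0205 and 0.0174). The difference between the treatments did not pass the test for any of the 3 (edgeR adjusted p = 0.24, 0.435 and 0.413).

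**Figure D2:**
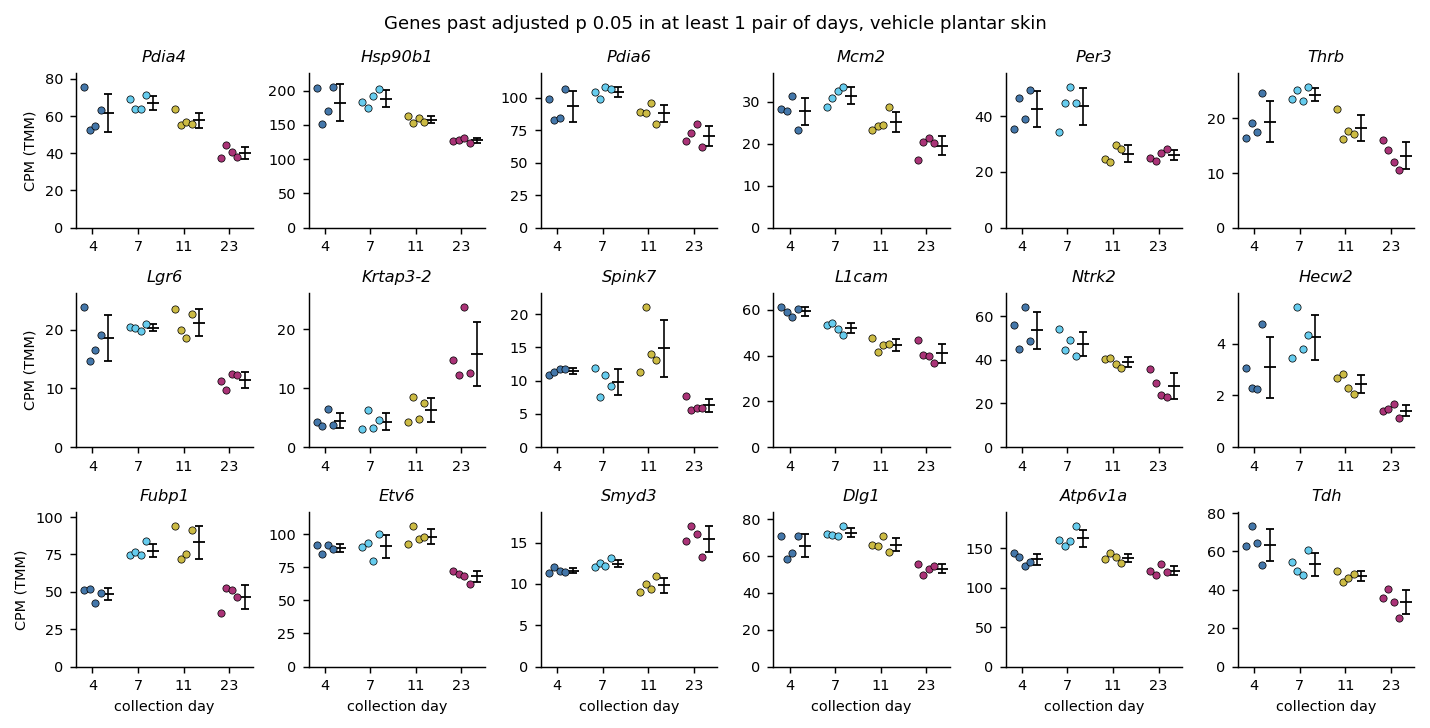
CPM of the 18 called genes in each vehicle skin library (1 point per mouse, n = 4 a day; the bar and whiskers beside them are the mean and SD; days run in order along each horizontal axis and are not spaced to scale). Each panel starts at 0 CPM; Pdia4 and Hsp90b1 had all 4 day 23 libraries below all others, and Krtap3-2 had them above all others.

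Among the clock genes Per3 was called, on day 23 against day 7. Per3 (chromosome 4, 151003652 to 151044665), a repressor of the loop, had 35.5, 46.4, 39.1 and 49.5 CPM on day 4 and 34.4, 44.6, 50.4 and 44.9 CPM on day 7. It had 24.6, 23.5, 29.7 and 28.4 CPM on day 11 and 24.9, 24.1, 26.7 and 28.1 CPM on day 23. The 8 libraries of the first 2 days all lay above the 8 of the last 2. Per3 fell by 0.75 on day 23 against day 7 (log2, SE 0.13, edgeR adjusted p = 0.0466).

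Npas2, the partner of Arntl, ran the other way, and no pair of days passed the test. Its levels were 12, 10.4, 14.7 and 10.4 CPM on day 4 and 13.8, 14.1, 7.05 and 11.6 CPM on day 7, then 17.2, 25.9, 14.9 and 20.3 CPM on day 11 and 21.2, 27.9, 27.8 and 17.4 CPM on day 23. Day 23 against day 7 gave a log2 difference of 1.02 (SE 0.23, edgeR adjusted p = 0.0905). Arntl itself averaged 37.0 ± 6.84 and 36 ± 5.54 CPM on days 4 and 7 and 49.3 ± 5.66 and 53.8 ± 3.61 CPM on days 11 and 23 (SD, n = 4 each), with a log2 difference of 0.58 for day 23 against day 7 (SE 0.14, edgeR adjusted p = 0.104). Dbp averaged 181 ± 26.2, 169 ± 13.3, 133 ± 17.1 and 115 ± 21.9 CPM on days 4, 7, 11 and 23, and its log2 difference on day 23 against day 7 was -0.56 (SE 0.14, edgeR adjusted p = 0.109). In Npas2 and Dbp, too, the libraries of days 4 and 7 did not overlap with those of days 11 and 23. Of all genes, 7.69% had no overlap between days 11 and 4 and 6.97% between days 23 and 4. The shares were 4.8% between days 11 and 7 and 9.76% between days 23 and 7. How many genes had none in all of these pairs at once was not counted. Per3 was called and Npas2 was chosen after its values were seen, so their separation adds no separate support.

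Of 14 core clock genes, 6 had an unadjusted p under 0.05 over the 4 days (14.2% of all genes did), Per3, Npas2, Arntl, Clock, Cry1 and Nr1d2, and of 10 clock output genes 4 did, Dbp, Tef, Nfil3 and Nampt. The 6 did not share 1 profile: every Cry1 library of day 7 was above those of day 4, and every Clock library of day 23 was below those of day 11. Per1 and Per2 were not among those with an unadjusted p under 0.05, nor was Nr1d1, which encodes the repressor REV-ERB alpha. The counts for the core list ran from 4 to 7 as each library was left out in turn.

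The letters of the D-box, TTATGTAA or TTACGTAA on either strand, stood in 347 of 32851 promoters (1.06%). Among the 24 clock and clock output genes, 19 had a promoter in the table and 1 held a match, Per3, which held 2 copies. The stretch with both is shown because Per3 is the called clock gene, with the matching letters in capitals.
Per3 (chr4:151044806-151044880, minus strand): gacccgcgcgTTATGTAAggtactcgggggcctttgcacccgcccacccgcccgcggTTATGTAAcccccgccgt
The E-box CACGTG, the site of Arntl with its partner, stood in 5 of those 19 promoters (Per1, Cry1, Tef, Ciart and Bhlhe41) and in 7.15% of all promoters. It was not in the Per3 window.

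**Figure D3:**
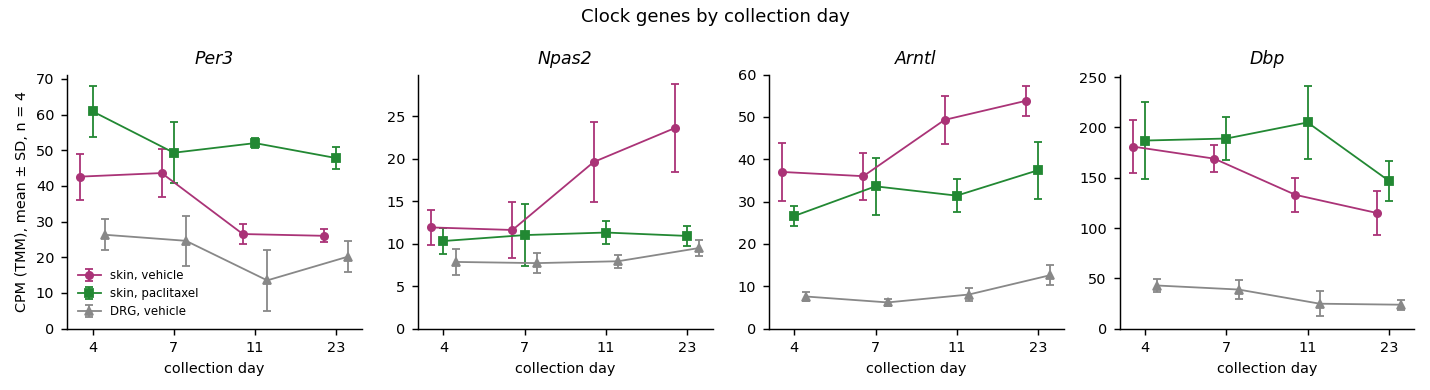
CPM of clock genes by day in skin of vehicle mice, in skin of paclitaxel mice and in DRG of vehicle mice (points and whiskers are the mean and SD of 4 libraries a day, joined by lines; days are in order but not to scale, and each vertical axis starts at 0). In vehicle skin, Per3 and Dbp sat lower and Npas2 higher on days 11 and 23 than on days 4 and 7.

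The same genes were set beside those of paclitaxel skin and of DRG. On days 4, 7, 11 and 23 Per3 averaged 42.6, 43.6, 26.5 and 26 CPM in vehicle skin and 60.9, 49.3, 52 and 47.8 CPM in paclitaxel skin. The day 23 against day 7 difference was -0.75 in vehicle and -0.05 in paclitaxel mice, and the difference between those differences was -0.71 (SE 0.17, unadjusted p = 0.000346, edgeR adjusted p = 0.109). Npas2 averaged 19.6 and 23.6 CPM on days 11 and 23 in vehicle skin and 11.3 and 10.9 CPM on those days in paclitaxel skin (edgeR adjusted p = 0.35 for a treatment by day interaction). In DRG of vehicle mice Per3 averaged 26.3 ± 4.30, 24.6 ± 7.05, 13.5 ± 8.59 and 20.2 ± 4.38 CPM on days 4, 7, 11 and 23 (edgeR adjusted p over the days = 0.452). There Arntl averaged 7.56, 6.17, 8.04 and 12.6 CPM (unadjusted p = 7.78e-05, edgeR adjusted p = 0.344) and Dbp 42.8, 38.8, 24.7 and 23.7 CPM (unadjusted p = 0.0115, edgeR adjusted p = 0.391). The hour of collection is not given for any of these libraries, and its part in the clock genes was not tested.

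L1cam (chromosome X, 73853778 to 73896105), an adhesion molecule of growing axons and Schwann cells that other cells also make, had 61.4, 59, 56.7 and 60.3 CPM on day 4, then 53.3, 54.1, 51.7 and 49 CPM on day 7, then 47.6, 41.4, 44.8 and 45.3 CPM on day 11, and 46.7, 40.4, 40 and 36.9 CPM on day 23. Day 7 lay wholly below day 4 and day 11 wholly below day 7, and day 23 overlapped with day 11. L1cam fell by 0.53 on day 23 against day 4 (log2, SE 0.08, edgeR adjusted p = 0.0394).

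Ntrk2 (chromosome 13, 58806569 to 59133970), the TrkB receptor for the growth factor BDNF, had 35.6, 29.2, 23.8 and 22.9 CPM on day 23 and 56.0, 45.1, 64.3 and 48.8 CPM on day 4. It fell by 0.94 (log2, SE 0.14, edgeR adjusted p = 0.0414), and its day 23 libraries were below those of every other day. Of the sensory neuron markers, 3 of 10 were high enough to be tested (Tubb3, Uchl1 and Prph). The summed level of all 10 was 53.3 to 92.6 CPM on day 23 and 70.5 to 89.9 CPM on day 4. Over the 4 days 1 of the 3 tested had an unadjusted p under 0.05, against 14.2% of all genes. At that limit 1 of the 3 was lower on day 23 than on day 4. None of the 10 Schwann cell and myelin genes had an unadjusted p under 0.05 over the 4 days. In the single pair of day 23 against day 11, 5 of the 10 were higher at an unadjusted p under 0.05 (4.99% of all genes were), with a median log2 fold change of 0.73.

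Lgr6 (chromosome 1, 134983301 to 135105276), a receptor for R-spondins that marks stem cells of the hair follicle and sweat gland in mice, had 11.2, 9.67, 12.5 and 12.3 CPM on day 23. It had 20.4, 20.3, 19.7 and 21.0 CPM on day 7, and 23.5, 20, 18.5 and 22.7 CPM on day 11. Day 4 was more spread, at 14.7 to 23.9 CPM, and still above day 23. Lgr6 fell by 0.84 on day 23 against day 7 (SE 0.14, edgeR adjusted p = 0.0466) and by 0.89 against day 11 (SE 0.14, edgeR adjusted p = 0.0465). In paclitaxel mice the same differences were -0.51 and -0.78 (edgeR adjusted p = 0.0412 and 0.0024).

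Krtap3-2 (chromosome 11, 99555823 to 99556853), a protein that packs keratin in the hair shaft, was the only called gene of day 23 against day 7 that was higher. Its levels were 14.8, 12.2, 23.8 and 12.5 CPM on day 23, against 3.14, 6.24, 3.21 and 4.51 CPM on day 7, and 3.49 to 8.55 CPM on the remaining days. Krtap3-2 rose by a log2 difference of 1.89 (SE 0.31, edgeR adjusted p = 0.0466). Genes of this family are close copies of each other, and how reads shared between them were counted could move its level.

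Other hair genes were higher on day 23 in the median, with much spread between mice. The 19 tested members of a hair follicle and hair keratin list had a median log2 fold change of 1.26 against day 7 and 1.5 against day 11, and all 19 were above 0 in both pairs. Their summed level was 301 to 506 CPM on day 23, 127 to 346 CPM on day 11 and 176 to 390 CPM on day 7, so the days overlapped. Krt31, a hair shaft keratin, had 5.50, 3.39, 18.7 and 17 CPM on day 23 and 1.66, 3.05, 0.658 and 0.454 CPM on day 7. Over the 4 days 2 of the 19 had an unadjusted p under 0.05 (Krt31 and Msx2), against 14.2% of all genes, and none was called. Leaving out 1 library at a time kept the median against day 7 between 1.00 and 2.24. Muscle genes had a median of 1.43 in the same pair, which turned to -1.62 without SKIN52. In paclitaxel skin the hair list had medians of 0.8 on day 23 against day 7 and 0.67 against day 11. In edgeR's test of a treatment by day interaction 0 of its 19 members had an unadjusted p under 0.05 (10.5% of all genes did). Whether the dissections took in haired skin to different extents was not tested.

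Mcm2 (chromosome 6, 88883474 to 88898780), a subunit of the helicase that opens DNA for replication, had 16.2, 20.4, 21.4 and 20.3 CPM on day 23 and 28.9, 30.9, 32.5 and 33.5 CPM on day 7. It fell by 0.68 (log2, SE 0.11, edgeR adjusted p = 0.0466), and day 23 was also below every library of days 4 and 11 (23.2 to 31.4 CPM). Among 18 proliferation genes, which include the called Mcm2, the contrast was rather between day 23 and day 11. On day 23, 10 of 18 were lower than on day 11 at an unadjusted p under 0.05 (5.13% of all genes were). In 8 of 18 every day 23 library was below every day 11 library (2.87% of all genes), and Mcm2 is counted among these 8. The list's median log2 fold change was -0.43, against 0.03 for all genes. Mki67, the Ki-67 antigen of dividing cells, had 100, 110, 121 and 92.8 CPM on day 23 and 147, 129, 130 and 192 CPM on day 11 (log2 difference -0.49). Over the 4 days 10 of 18 had an unadjusted p under 0.05, against 14.2% of all genes. Without SKIN36 3 of 18 did, which is close to that share.

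The remaining called genes have no shared role. Fubp1 (chromosome 3, 152210422 to 152236826), a nucleic acid-binding protein that regulates Myc and splicing, was high on the middle days. It had 51.4, 51.6, 42.8 and 48.9 CPM on day 4, then 74.3, 76.8, 74.9 and 83.8 CPM on day 7, then 93.9, 72.2, 75.3 and 91.4 CPM on day 11, and 35.6, 52.8, 51.4 and 46.3 CPM on day 23. Day 4 and day 23 overlapped, and days 7 and 11 lay above both. Fubp1 fell by 0.73 on day 23 against day 7 (SE 0.12, edgeR adjusted p = 0.0466) and by 0.84 against day 11 (SE 0.12, edgeR adjusted p = 0.0457). In paclitaxel skin Fubp1 averaged 68.7, 71.4, 74.4 and 67.0 CPM on days 4, 7, 11 and 23.

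Smyd3 (chromosome 1, 178951960 to 179518041), a lysine methyltransferase, had 15.2, 17, 16.1 and 13.3 CPM on day 23 and 8.97, 9.95, 9.42 and 11.0 CPM on day 11, and rose by a log2 difference of 0.65 (SE 0.10, edgeR adjusted p = 0.0465). Days 4 and 7 lay between, at 11.3 to 13.1 CPM. Etv6 (chromosome 6, 134035700 to 134270158), a repressor of the Ets family, had 71.9, 69.9, 68.3 and 62.2 CPM on day 23 and 92.8, 106, 96.4 and 97.5 CPM on day 11, and fell by 0.53 (SE 0.08, edgeR adjusted p = 0.0457). Spink7, a Kazal-type inhibitor of serine proteases, had 7.72, 5.57, 5.92 and 5.92 CPM on day 23 and 11.3, 21.1, 14.0 and 13.1 CPM on day 11, and fell by 1.24 (SE 0.19, edgeR adjusted p = 0.0465). Etv6 and Spink7 were also lower on day 23 than on day 11 in paclitaxel mice (log2 differences -0.38 and -1.11, edgeR adjusted p = 0.00988 and 0.0159), whereas Smyd3 gave -0.18 there (edgeR adjusted p = 0.358).

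Tdh (chromosome 14, 63492347 to 63509092), the enzyme threonine dehydrogenase, had 36, 40.3, 33.7 and 25.3 CPM on day 23 and 63.1, 73.2, 64.2 and 52.9 CPM on day 4, and fell by 0.90 (SE 0.13, edgeR adjusted p = 0.0394). Thrb (chromosome 14, 17660261 to 18038090), a thyroid hormone receptor, had 16.0, 14.2, 12 and 10.5 CPM on day 23 and 23.5, 25.2, 23.1 and 25.7 CPM on day 7. Hecw2 (chromosome 1, 53806876 to 54195168), a ubiquitin ligase of low level, had 1.39, 1.46, 1.65 and 1.12 CPM on day 23 and 3.43, 5.43, 3.79 and 4.35 CPM on day 7. For Dlg1 (chromosome 16, 31663443 to 31875129), a scaffold of cell junctions and polarity, day 23 gave 55.4, 49.7, 53 and 54.4 CPM and day 7 gave 72.1, 71.6, 71.0 and 76.2 CPM. For Atp6v1a (chromosome 16, 44085402 to 44139705), a subunit of the proton pump of lysosomes, day 23 gave 121, 116, 130 and 120 CPM and day 7 gave 161, 153, 159 and 178 CPM. No library overlapped between the days compared in any of these 5 genes. They were called in those same pairs, so this adds no separate support. Of all genes, 6.97% had no overlap between days 23 and 4, and 9.76% had none between days 23 and 7. On the log2 scale Thrb fell by 0.89, Hecw2 by 1.59, Dlg1 by 0.45 and Atp6v1a by 0.42 (edgeR adjusted p = 0.0466 for each).

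No collagen, matrix or macrophage gene passed the adjusted test over the 4 days, and their counts at an unadjusted p under 0.05 are given as a description. Collagen genes are the product of dermal fibroblasts, and macrophage genes come from the resident phagocytes of the dermis. Of 19 collagen and matrix genes, 13 had an unadjusted p under 0.05 over the 4 days, as had 15 of 19 macrophage genes, against 14.2% of all genes.

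All 19 collagen and matrix genes were below 0 in log2 fold change on day 11 against day 4 and on day 23 against day 4, with 15 lower at an unadjusted p under 0.05 in either pair, against 6.97% and 7.04% of all genes. The medians were -1.06 and -1.15. Every day 11 library was below every day 4 library in 0 of 19 (2.97% of all genes), and every day 23 library was in 5 of 19 (3.03%). Against day 7 the same held for day 11 in 2 of 19 (2.67%) and for day 23 in 8 of 19 (4.92%). Col1a1 (chromosome 11, 94936224 to 94953042), the main chain of type I collagen, had 3370, 1110, 3110 and 1630 CPM on day 4, then 1340, 1330, 1330 and 861 CPM on day 7, then 777, 1270, 836 and 343 CPM on day 11, and 928, 714, 466 and 878 CPM on day 23. SKIN05 and SKIN07 of day 4 were the high libraries, while SKIN06 of that day lay within the range of day 11. The log2 difference of day 23 against day 4 was -1.63 (SE 0.39, edgeR adjusted p = 0.100). Without SKIN07 the count of 13 became 7, and without the 3 libraries that stand apart it was 12.

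Macrophage genes had medians of -0.67, -1.21 and -1.02 on days 7, 11 and 23 against day 4. At an unadjusted p under 0.05, 16 of 19 were lower on day 11 and 14 on day 23, against 6.97% and 7.04% of all genes. Every day 11 library was below every day 4 library in 3 of 19 (2.97% of all genes), and every day 23 library was in 2 of 19 (3.03%). Cd68 (chromosome 11, 69664213 to 69666153), a lysosomal protein of macrophages, had 42.9, 22.5, 44.2 and 37.5 CPM on day 4, then 27.3, 22.7, 25.5 and 19.8 CPM on day 7, then 14.0, 19.4, 15.6 and 14.7 CPM on day 11, and 17.5, 20.8, 13.8 and 16.2 CPM on day 23. Every day 4 library of Cd68 was above those of days 11 and 23, the lowest of them being SKIN06 again. The log2 difference of day 11 against day 4 was -1.21 (SE 0.19, edgeR adjusted p = 0.105) and that of day 23 against day 4 was -1.11 (SE 0.19, edgeR adjusted p = 0.0536). Without SKIN08 the count of 15 became 7, without SKIN05 it became 8, and without the 3 libraries that stand apart it was 7. SKIN08 had the second highest muscle level as well as 544.4 CPM of summed macrophage genes. With the muscle level as a covariate the count stayed at 15 of 19, with medians of -0.69, -1.22 and -1.03 on days 7, 11 and 23 against day 4.

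**Figure D4:**
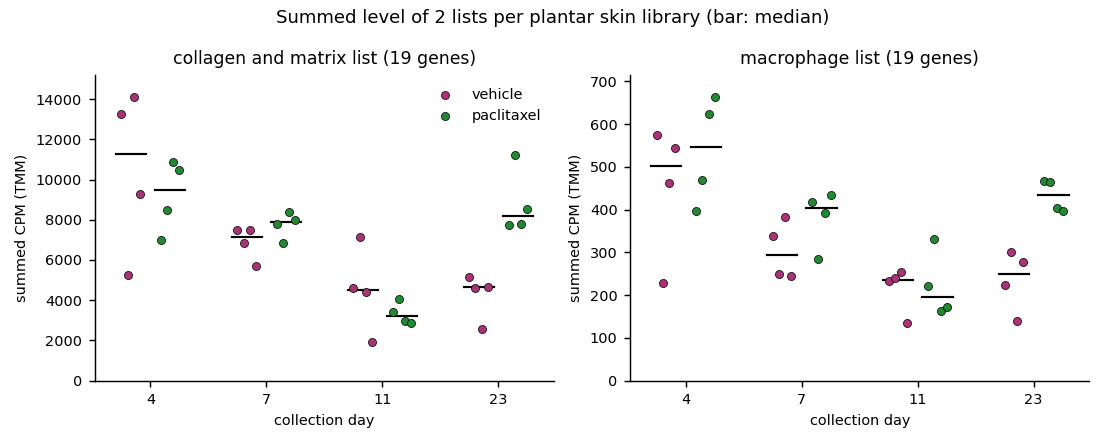
Summed CPM of the collagen and matrix list and of the macrophage list in each library of vehicle and of paclitaxel skin (1 point per mouse, n = 4 a day, with the median as a bar; days in order, not to scale; vertical axes start at 0). In vehicle skin the collagen and matrix sum had medians of 11300, 7150, 4510 and 4630 CPM on days 4, 7, 11 and 23, and in paclitaxel skin 9500, 7900, 3200 and 8180 CPM.

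Other stromal lists leaned the same way on day 11 against day 4. Medians were -0.85 for complement, -0.79 for endothelial, -0.95 for adipocyte and -0.76 for mast cell genes, against -0.02 for all genes, and SKIN36 was the low library of day 11 in each of these sums. Over the 4 days 2 of 10, 1 of 12, 0 of 12 and 2 of 8 of their members had an unadjusted p under 0.05, against 14.2% of all genes. Every day 11 library was below every day 4 library in 0 of 10 complement genes (2.97% of all genes) and below every day 7 library in 4 of 10 (2.67%).

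Antigen presentation genes had a median of -0.53 on day 7 against day 4. Their summed level was 312.7, 388.6, 491.8 and 515.2 CPM on day 7, so that 2 libraries were low and 2 lay within the range of day 11 (484.4 to 548.3 CPM). No member was called, and 4 of 10 had an unadjusted p under 0.05 over the days (14.2% of all genes did), namely Cd74, H2-Ab1, H2-Eb1 and Ciita, which encode class II molecules, their invariant chain and their switch. Glucocorticoid-responsive genes had a median of -0.25 on day 11 against day 7. Against day 4 the median of day 11 was -0.11, which became 0.06 without the 3 libraries that stand apart and 0.01 without SKIN08. In 5 of 14 every day 11 library lay below every day 7 library (2.67% of all genes), and Zbtb16, a transcription factor that glucocorticoids induce, had 28.3, 19.3, 14.9 and 19.9 CPM on day 11 and 53.5, 53.3, 93.7 and 87.8 CPM on day 7 (log2 difference -1.81, SE 0.34, edgeR adjusted p = 0.62). Over the 4 days 5 of the 14 had an unadjusted p under 0.05, with Mt1, Mt2, Tsc22d3 and Fkbp5 beside Zbtb16.

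Keratinocyte lists had small medians. In the 12 suprabasal and plantar keratin genes the medians lay between -0.26 and 0.14, and 3 had an unadjusted p under 0.05 over the days (Krt1, Dsc1 and Krt9), against 14.2% of all genes. Krt1, the main suprabasal partner of Krt10, had 12700, 12600, 9850 and 11100 CPM on day 23 and 13500 to 23600 CPM on the 3 earlier days, a log2 difference of -0.61 against day 7 (SE 0.17, edgeR adjusted p = 0.141). Of 24 cornified envelope genes 2 had an unadjusted p under 0.05, of 10 basal keratinocyte genes 1 did, and of 10 p53 target genes none did, beside the same share of all genes.

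**Figure D5:**
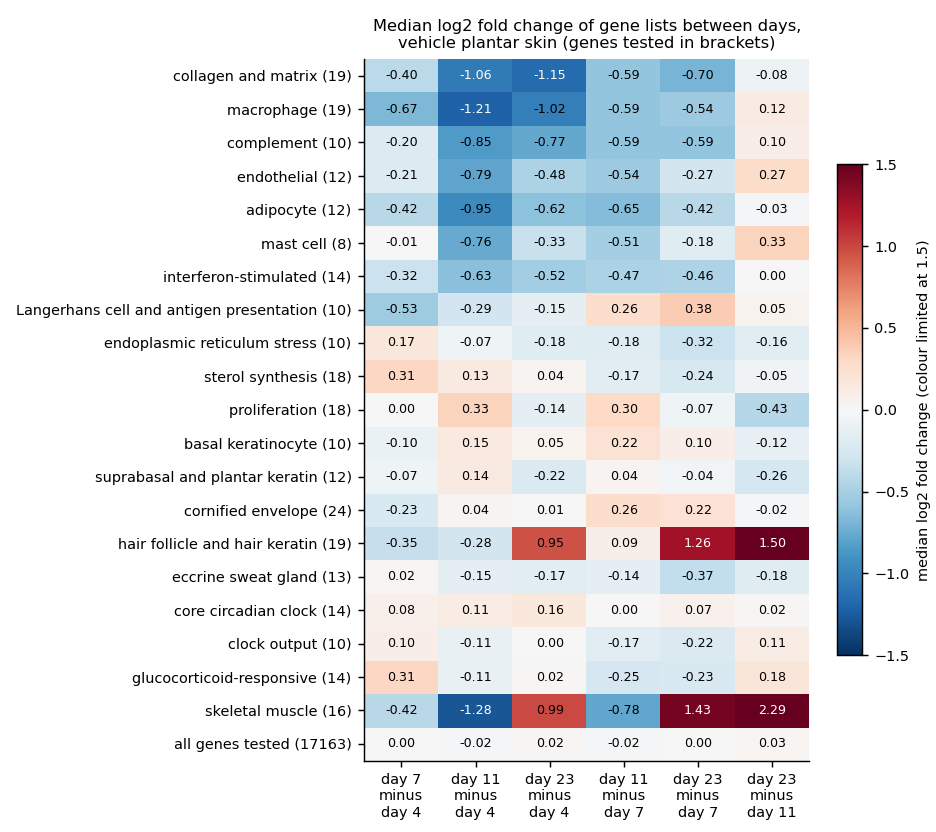
Median log2 fold change of gene lists (rows, with the number of genes tested) for the 6 pairs of days (columns, later day minus earlier day), with all tested genes in the last row; blue is lower and red is higher on the later day. Collagen and macrophage medians were -1.06 and -1.21 on day 11 against day 4, and hair and muscle medians were 1.5 and 2.29 on day 23 against day 11, the muscle median being -0.88 without SKIN52.

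Skin of paclitaxel mice, sampled on the same days, gave more calls. Over the 4 days 3782 of 17772 genes (21.3%) passed the adjusted test there, against 0 of 17163 in vehicle skin. The tissue content of the paclitaxel libraries moved with the day: the summed skeletal muscle level was 15900 to 30900 CPM on day 4, 633 to 3780 CPM on day 7, 77.5 to 4260 CPM on day 11 and 20900 to 38200 CPM on day 23, so that days 4 and 23 did not overlap with days 7 and 11. Smooth muscle and Schwann cell sums were likewise higher on days 4 and 23 in every library. The part of this in the calls of paclitaxel skin, and in the comparisons with it, was not tested. The spread between mice was wider in vehicle skin, with a biological coefficient of variation of 0.359 against 0.255. Whether the day profile of a gene differed between the treatments was tested as an interaction over all 32 skin libraries. No gene passed over the 4 days (0 of 18578, 0%, smallest adjusted p 0.0873 in edgeR), and 1959 genes (10.5%) had an unadjusted p under 0.05, among them 12 of 19 collagen and matrix genes, 2 of 19 macrophage genes and 15 of 24 cornified envelope genes.

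The difference between the treatments was also tested in each of the 6 pairs, with p adjusted within a pair and not over the pairs. It passed for 0 genes in every pair but day 23 against day 7, where it passed for 7 genes (0.0377%). Apart from Rfx1, their adjusted p lay between 0.0412 and 0.0458 in edgeR. Their log2 fold changes were between 0.11 and 1.89 in vehicle skin and between -0.80 and -0.29 in paclitaxel skin. Rfx1, a transcription factor of the RFX family, averaged 49.6 ± 3.71 CPM on day 23 and 32.1 ± 1.90 CPM on day 7 in vehicle skin, and 18.7 ± 0.524 and 26 ± 3.05 CPM in paclitaxel skin (SD, n = 4 each). Its difference of differences was 1.09 (log2, SE 0.16, edgeR adjusted p = 0.00583). Krtap3-2 averaged 15.8 ± 5.44 CPM on day 23 and 4.28 ± 1.45 CPM on day 7 in vehicle skin, and 4.26 ± 0.618 and 5.22 ± 1.49 CPM in paclitaxel skin, a difference of differences of 2.18 (SE 0.42, edgeR adjusted p = 0.0457). The others were Cbarp, Fam110a, Hoxb9, Bclaf1 and the tubulin gene Tubb4b, with differences of differences between 0.59 and 1.18.

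The collagen and macrophage lists are given side by side for both treatments. The median of the collagen list on day 23 against day 11 was -0.08 in vehicle skin and 1.22 in paclitaxel skin, and on day 11 against day 4 it was -1.06 and -1.40. For macrophage genes the medians on day 23 against day 11 were 0.12 in vehicle and 1.15 in paclitaxel skin. In that pair the muscle list had medians of 2.29 in vehicle and 4.25 in paclitaxel skin, Schwann cell genes 0.73 and 0.98, smooth muscle genes 0.46 and 0.75, and endothelial genes 0.27 and 0.83. The treatment by day interaction of single genes did not pass for Col1a1 or Cd68 (edgeR adjusted p = 0.228 and 0.277).

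DRG of vehicle mice on the same days gave 0 called genes of 17885 (0%, smallest adjusted p 0.115 in edgeR) and 1981 (11.1%) at an unadjusted p under 0.05, with a biological coefficient of variation of 0.209. Krtap3-2 was at most 0.00615 CPM on average there on any day, and Lgr6 was under 1 CPM on average on each day. Col1a1 in DRG averaged 464 ± 47.0 CPM on day 4 and 329 ± 26.3, 346 ± 86.9 and 374 ± 56.9 CPM on days 7, 11 and 23 (SD, n = 4 each).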

How the data were processed

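RNA of plantar skin was sequenced as single-end reads. Per the submitters' processing notes and methods, the authors trimmed reads with Trimmomatic (version 0.38) and aligned them with STAR to GRCm38 with Ensembl annotation. The authors deposited counts per gene, with the runs of a mouse summed into 1 column (1 run for some mice, 2 for the others). In vehicle skin the libraries with 1 run were SKIN19 and SKIN20 of day 7 and SKIN35 of day 11. Whether the number of runs moved a level was not tested. The labels name oligo-dT selection and the methods ribosomal depletion. The deposited normalised tables were not used, 28 columns without values were not used, and 118 rows without a gene name (0.021 to 0.0394% of counts) were dropped.

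Counts of the 16 vehicle libraries were filtered with filterByExpr, scaled by TMM and fitted with edgeR (4.0.16, R 4.3.3) by quasi-likelihood, with 1 group per day; p was adjusted by Benjamini-Hochberg over 17163 genes, threshold 0.05. Mice are the replicates. Each p-value sets a difference between days against a spread between mice that was estimated over the 4 days together, with 4 mice a day. CPM is after TMM. limma (3.58.1), DESeq2 (1.42.0) and sva (3.50.0) gave alternatives. The design gave named genes by rule: up to 5 genes per pair and direction past the threshold at an average log2 CPM of at least 1 (otherwise the 5 smallest p), list members past the threshold over the days and otherwise up to 4 of highest level. All other genes named, such as Npas2, Arntl, Krt31, Msx2, Hsp90b1, Pdia6, Mcm2, Dlg1 and Atp6v1a and the 7 interaction genes, were chosen after their values were seen. The members and the 37 gene lists were chosen with earlier results of these data known. Gene coordinates are of GENCODE vM21 (GRCm38). The fit was also run on simulated counts, drawn for each gene on its own from its overall mean and fitted spread. Such counts hold no differences in tissue content between libraries, so that run cannot decide whether the calls near the threshold hold.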

Additional observations from a re-analysis of the deposited data

Results flagged for a closer look

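Single libraries stood far from the others of their day in 7 of 148 groups of 4 looked at, where chance alone gives about 1 in 20. Spink7 was 7.72 CPM in SKIN49 of day 23, with the nearest other library of that day at 5.92. Col1a1 was 861 CPM in SKIN20 of day 7, with the nearest at 1330. The summed skeletal muscle level was 58540 CPM in SKIN52 of day 23 (nearest 4475) and 26540 CPM in SKIN08 of day 4 (nearest 4956). SKIN52 also had 4.62% of its counts in mitochondrial genes (nearest 2.49%), and SKIN08 had 23460 genes detected (nearest 21637). The summed hair follicle level was 390.5 CPM in SKIN18 of day 7 (nearest 198.2).

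The log2 change on day 23 against day 7 differed between vehicle and paclitaxel mice, by the interaction test in edgeR, in 7 genes. Each of the other pairs of days gave 0, and p was not adjusted over the pairs. The vehicle change minus the paclitaxel change was 2.18 for Krtap3-2 (adjusted p = 0.0457), 1.18 for Hoxb9 (0.0457), 1.16 for Fam110a (0.0412), 1.09 for Rfx1 (0.00583), 0.91 for Cbarp (0.0412), 0.67 for Tubb4b (0.0458) and 0.59 for Bclaf1 (0.0457).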

How the results depend on the processing

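No paired analysis was possible because each mouse was collected on 1 day and the mouse numbers of the days do not overlap. Counts of genes at an adjusted p under 0.05 are given over the 4 days and then for day 23 against days 4, 7 and 11, which were 0, 3, 12 and 5 in the report. They were 647, 439, 424 and 69 with DESeq2 (and 1, 241 and 5 for day 7 against 4, day 11 against 4 and day 11 against 7), 163, 198, 115 and 10 with all 32 skin libraries in 1 fit (115 for day 11 against 4 and 3 for day 11 against 7), 11, 44, 29 and 2 with the muscle level as covariate, and 3, 60, 42 and 6 with 1 surrogate variable, estimated from the same data. limma voom gave 1, 3, 37 and 1, and DESeq2's size factors in edgeR 0, 3, 16 and 0. Without the filter on low counts they were 4, 2, 0 and 0 (and 56 over the days in DRG). Fits of only the 8 libraries of a pair, and adjustment over the 6 pairs together, gave 0 for the 3 pairs of day 23. Without SKIN52, SKIN08 and SKIN36, a choice made after seeing the data, the counts were 0, 1, 0 and 0. With each library left out in turn they ran from 0 to 4 (highest without SKIN05), 0 to 42 (SKIN06), 0 to 17 (SKIN08) and 0 to 1 (SKIN05 or SKIN19), and from 0 to 1 for day 11 against day 4. No called gene reversed its direction. Some list medians changed sign: without SKIN52 muscle was -1.62 on day 23 against day 7 and -0.88 against day 11, without SKIN34 collagen was 0.24 on day 23 against day 11, and without the 3 libraries glucocorticoid-responsive genes were at 0.06 on day 11 against day 4.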
